A study of Rattus norvegicus with 12 samples.

Results

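The cytosolic ribosomal protein genes are described here in rat livers of a donation after circulatory death (DCD) model. The members were the protein-coding genes of the table whose whole symbol is Rpl or Rps with a number and at most 1 of the letters a, x, y or l after it, together with Rplp0 to Rplp2 and Rpsa. Of 33744 genes in the table, 73 were members, 45 of the large and 28 of the small ribosomal subunit. They stood on 79 matching rows, since 4 symbols (Rpl21, Rpl7a, Rps27a and Rps4x) had more than 1 row, and the 6 rows with fewer counts were set aside.

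Livers of male SD rats aged 6 to 8 weeks were sequenced in 4 groups of 3 livers, with 1 library per liver. Every liver, controls included, had 30 min of warm ischemia after cardiac arrest. Livers labelled WI 30 min (WI) were sampled after this alone, and those labelled SCS 4 h (SCS) after another 4 h in static cold storage. In the remaining groups, storage lasted 3 h and was followed by 1 h of machine perfusion through the portal vein at 4 °C. The perfusate was not oxygenated in the group HMP 1 h (HMP), and it was oxygenated in the group HOPE 1 h (HOPE). No healthy liver without ischemia was analysed here, so each comparison is between injured livers, and the WI livers also differed from the others in the time that passed before sampling.

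Each ribosome joins a large subunit, which forms peptide bonds, to a small subunit, which reads the mRNA. A ribosome carries 1 copy of nearly every ribosomal protein, so their mRNAs are made at high and similar levels in most cells, and the liver, which secretes most plasma proteins, is rich in them. Many of these mRNAs begin with a C followed by a run of pyrimidines, the terminal oligopyrimidine (TOP) tract, through which growth signals acting on mTOR control their translation. mRNA levels, which are measured here, do not show how much of the mRNA was translated.

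The start of the transcript was examined in the RefSeq promoter sequences of build GRCr8, which 55 of the 73 members matched by symbol. A TOP start was read as a C at the annotated start followed by at least 4 pyrimidines (C or T), on the strand of the gene only. It was held by 19 of the 55 members (34.5%), against 2.44% of the other 21796 protein-coding promoters and 2.63% of all 33469 promoters. It stood on 14 of 35 large and 5 of 20 small subunit members. A looser reading, a run of at least 5 pyrimidines reaching within 5 bases of the start, held for 38 members (69.1%) and for 28.2% of the other promoters. In the windows below, which show the shape of the motif in members of both subunits, 10 bases before the annotated start are followed by 20 bases from it, and capitals mark the run.
Rplp0, chr12:46718371-46718400, minus strand: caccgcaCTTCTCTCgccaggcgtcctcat
Rpl10, chrX:157205840-157205869, plus strand: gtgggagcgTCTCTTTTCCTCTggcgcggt
Rpl28, chr1:78083513-78083542, minus strand: cccctagtgTCTTTCTTTCCgtctccggcc
Rpl37a, chr9:81748081-81748110, plus strand: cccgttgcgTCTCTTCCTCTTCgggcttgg
Rps15, chr7:10068096-10068125, minus strand: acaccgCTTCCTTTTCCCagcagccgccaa
Rps27, chr2:177964587-177964616, minus strand: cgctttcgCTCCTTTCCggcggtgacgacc
For contrast, Rps19, Rplp2 and Rpl41 had no such run at the annotated start.
Rps19, chr1:89608678-89608707, plus strand: cttgtgcgcccgggaaaccccgtcgttccc
Rplp2, chr1:205975911-205975940, plus strand: cgccgccggacgccgccgaggtcgcacgcg
Rpl41, chr7:1563478-1563507, minus strand: ctcggaagtgacgacaccaagcacgccatt
The match depends on where the start was annotated, and a window without the run says only that these letters were not there. Among tested members the median log2 fold change of SCS over WI was 0.26 with a TOP start (18 members) and 0.26 without one (35 members), and that of HOPE over SCS was -0.23 and -0.22.

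The libraries held 15262961 to 18343167 counts. The share of mitochondrial DNA genes was 4.79% to 10.2%, except in HMP liver 1, where it was 18.7%. Hepatocyte markers such as Alb were high in every liver, with a sum over 9 of 9 genes of 152701 to 206685 CPM (counts scaled to the same library total for each liver). The 4 erythroid markers (Hba-a1, Hba-a2, Hbb and Alas2, none at 0) summed to 3499 to 4751 CPM in WI and to 247 to 2580 CPM in the other groups. The 9 Kupffer cell and macrophage markers were highest in HMP liver 1 (1544 CPM), followed by HOPE liver 3 (1026 CPM), and were 425 to 680 CPM in the other 10 livers.

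Levels of different genes were compared per length, as CPM per kilobase of the gene length in the table, averaged over the 12 livers. Rpl41, which encodes a very short basic protein, was highest at 641 CPM per kilobase. It was followed by Rpl10 (609), which is placed late in the assembly of the large subunit, the stalk proteins Rplp0 (496) and Rplp1 (493), and Rpl36 (490). The median was 168 CPM per kilobase for the large and 237 for the small subunit, and 52 of the 73 members were at 100 or above. The lengths in the table run from 246 to 5151 bases and exceed 1000 bases for 24 members, which lowers the level per length of genes such as Rpl11 (3845 bases) and Rpl7 (5151 bases).

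Rpl10a and Rpl23a had no count in any liver, where a count of 0 allows up to 0.164 to 0.197 CPM, while table rows described as like them held 1970 and 990 counts. Rpl3l, a paralog of Rpl3 known from striated muscle, had 0 to 5 counts per liver. Rpl39l, a paralog of Rpl39 known from the testis, had at most 17. Next came Rpl8 at 3.71 CPM per kilobase, Rpl13a at 6.10 and Rps6, the target of the S6 kinases, at 12.9. These are levels of their own rows only. Other rows described as the same protein or one like it held 83.5% of the combined reads for Rpl8 and 20.5% for Rps6. Rpl10l, another paralog known from the testis, was at 16.8 CPM per kilobase, with 3.80 to 22.4 CPM in single livers.

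**Figure D1:**
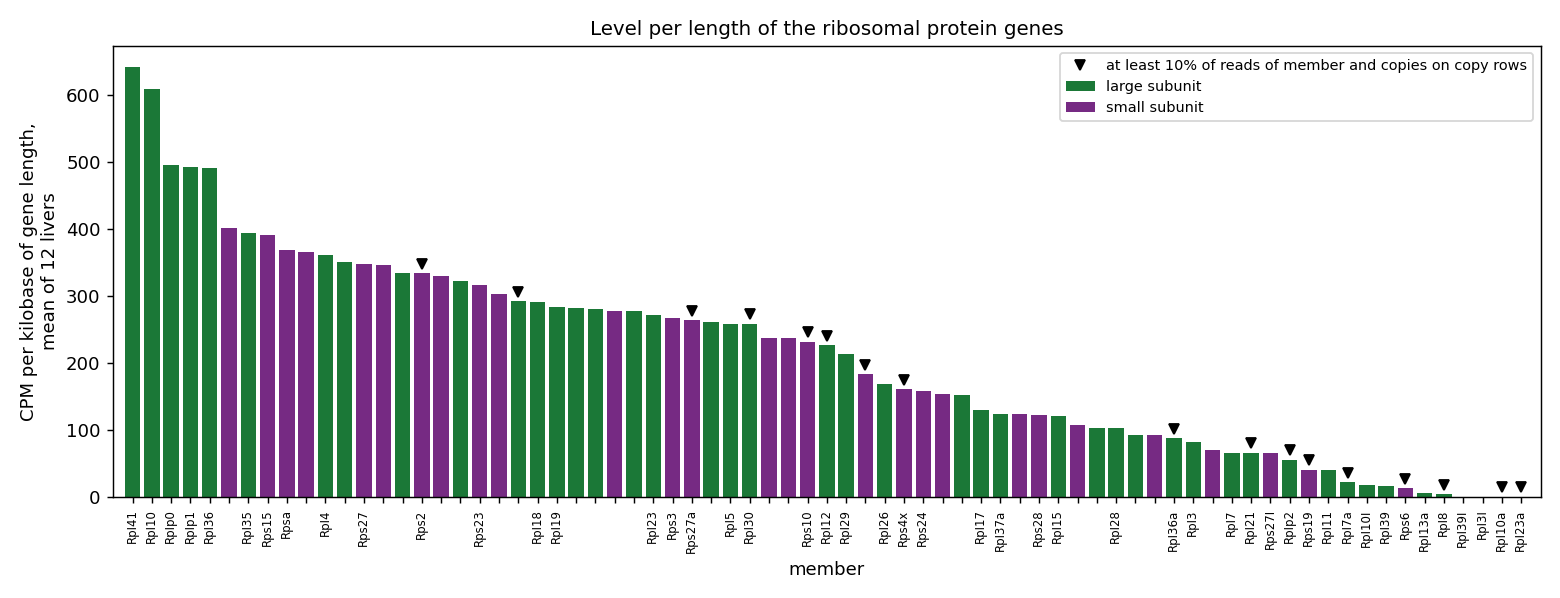
Level of each of the 73 members per kilobase of gene length (mean CPM per kilobase over 12 livers, linear axis from 0), large subunit in green and small subunit in purple, with names for members described in the text and triangles over members of which at least 10% of the reads of member and copies lay on other rows. Rpl41 at 641 and Rpl10 at 609 lead, and Rpl10a and Rpl23a stand at 0.

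Ribosomal protein genes have many processed pseudogenes, and reads from near-identical copies can be split between rows. The table held 105 other rows whose description or symbol names the protein of a member or one like it, for 44 of the 73 members. They carried 180294 counts against 2319600 on the members, which is 7.21% of the sum. They include Rpl36al (15205 counts) and Rpl7l1 (5896 counts), paralogs with symbols of their own. For 15 members with counts the copies held at least 10% of the reads. With copies added, 13 of the 15 had a smaller SD of log2 CPM within groups, and the median SD of the 15 went from 0.313 to 0.198.

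Rps27a, which encodes a ribosomal protein fused to ubiquitin, shows the size of the shift. Its own row held 204, 72.9 and 185 CPM in the WI livers, 127, 131 and 207 in SCS, 71.4, 122 and 82.2 in HMP, and 98.7, 107 and 81.6 in HOPE. In CPM, all SCS livers were above all perfused livers, and the WI livers overlapped every other group. With the TMM scaling used in the tests below, HMP liver 2 was above SCS livers 1 and 2. The values spanned 71.4 to 207 CPM, whereas the sum with its 2 copy rows spanned 197 to 257 CPM. Rpl30 spanned 40.4 to 182 CPM alone and 116 to 194 with 6 copy rows. Rpl21 went from 16.7 to 64.0 CPM alone to 53.0 to 103 with copies, and Rplp2, the partner of Rplp1 in the stalk, from 1.25 to 51.3 CPM alone to 33.6 to 90.8. How the reads were assigned to these rows was not tested, and the values of these members alone are uncertain.

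**Figure D2:**
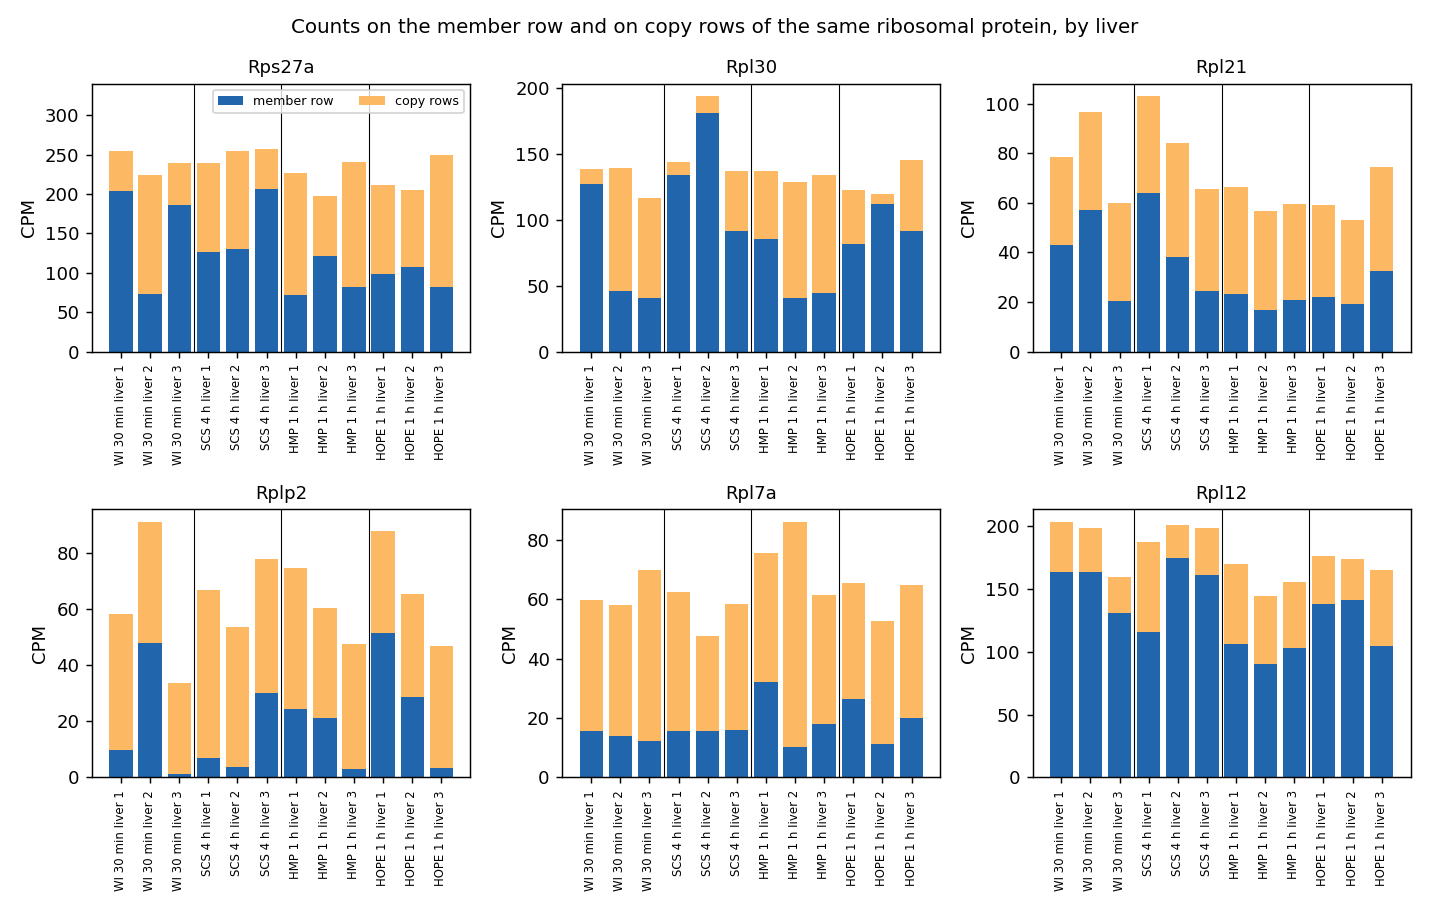
CPM on the member's own row (blue) and on the copy rows of the same protein (orange) in each of the 12 livers, for 6 members, with stacked bars from 0 and vertical lines between groups. The blue part of Rps27a ranges from 71.4 to 207 CPM while the whole bar ranges from 197 to 257 CPM.

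The members together took 1.18%, 1.19% and 1.01% of all counts in the WI livers 1 to 3. The SCS livers had 1.36%, 1.41% and 1.15%, the HMP livers 1.14%, 0.972% and 1.10%, and the HOPE livers 1.00%, 1.04% and 1.23%. As mean ± SD (n = 3) this was 1.13% ± 0.101 in WI, 1.31% ± 0.138 in SCS, 1.07% ± 0.0872 in HMP and 1.09% ± 0.121 in HOPE. SCS livers 1 and 2 were above every liver of the other groups, and SCS liver 3 lay within their range. These shares are of library totals, without the TMM scaling used in the tests below, and a scaled score per liver is given after the tests. Of the counts of nuclear genes alone, the members took 1.38% ± 0.139 in SCS and 1.19% in each of the other groups (SD 0.106, 0.190 and 0.153 in WI, HMP and HOPE). On this scale WI livers 1 and 2 (both 1.25%), HOPE liver 3 (1.36%) and HMP liver 1 (1.4%) lay within the SCS range of 1.23% to 1.49%. HMP liver 1 and HOPE liver 3 had the highest sums of Kupffer cell markers, and also of stellate, sinusoidal endothelial, bile duct and lymphocyte markers. Their hepatocyte marker sums of 152701 and 160842 CPM were near the low end, as was that of SCS liver 2 at 154395 CPM. The part of the cell mix in their shares was not tested.

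The large subunit genes held 1.69, 1.64 and 1.64 times the counts of the small subunit genes in the WI livers. The ratio was 1.66, 1.49 and 1.68 in SCS, 1.68, 1.63 and 1.63 in HMP, and 1.77, 1.75 and 1.67 in HOPE. HOPE livers 1 and 2 had the highest ratios and SCS liver 2 the lowest, and the third HOPE liver lay among the other groups. The means were 1.66 ± 0.0256, 1.61 ± 0.102, 1.65 ± 0.0284 and 1.73 ± 0.0538 (SD, n = 3) in the same order. No p was computed for the share or the ratio, which are sums over chosen genes.

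**Figure D3:**
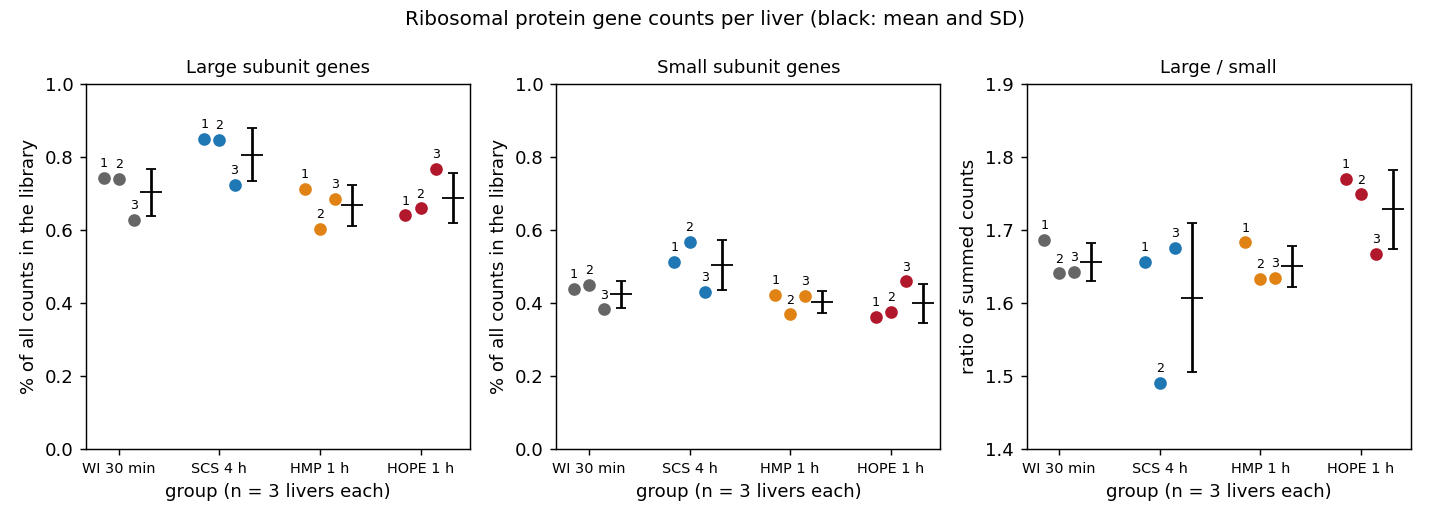
Share of all counts on large subunit genes (left) and small subunit genes (middle), in percent with axes from 0, and the ratio of the summed counts (right, axis from 1.4), for each liver (numbered points) with the mean and SD of the 3 livers of a group in black. SCS livers 1 and 2 stand highest in both shares, and HOPE livers 1 and 2 have the highest ratios, 1.77 and 1.75.

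For tests of single genes, 69 of the 73 members (41 large, 28 small) passed the filter on low counts. Rpl10a, Rpl23a, Rpl3l and Rpl39l did not. All 13687 genes that passed were fitted with edgeR's quasi-likelihood test on counts normalised by TMM, in 1 model over the 12 livers. The TMM factors ran from 0.918 to 1.07. CPM values of single livers are given without these factors, so their order and overlap can differ from the scale of the fold changes. No member passed an edgeR adjusted p of 0.05 in any of the 6 pairs of groups or in the test of any difference among the groups, where the share of all tested genes that passed was 0% as well. DESeq2 called 566 genes (4.14%) for any difference, 5 of them members (Rpl15, Rpl18, Rpl29, Rps27l and Rps28). The edgeR unadjusted p of any difference was under 0.05 for 11 of 69 members (15.9%) and for 12.3% of all genes. The labels do not say more about the livers than their number, so p-values measure the spread between these 12 samples.

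The SD of log2 CPM within groups had a median of 0.161 over the 69 members and of 0.292 over all tested genes. These sets were not matched by level, so the difference is not read as a trait of the members. Rpl10 had the smallest SD (0.0811), and the largest were those of Rplp2 (2.02), Rpl10l (0.708) and Rpl30 (0.574). Across the 12 livers the correlation of log2 CPM between pairs of members had a median of 0.593, and of 0.641 among the 58 members with at least 50 CPM. This is a description, since the points share libraries and scaling, and no such median was computed for other genes. WI liver 3 was the lowest of all 12 livers for 35 of the 69 members and HMP liver 2 for 18, while SCS liver 2 was the highest for 26 and SCS liver 1 for 18.

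**Figure D4:**
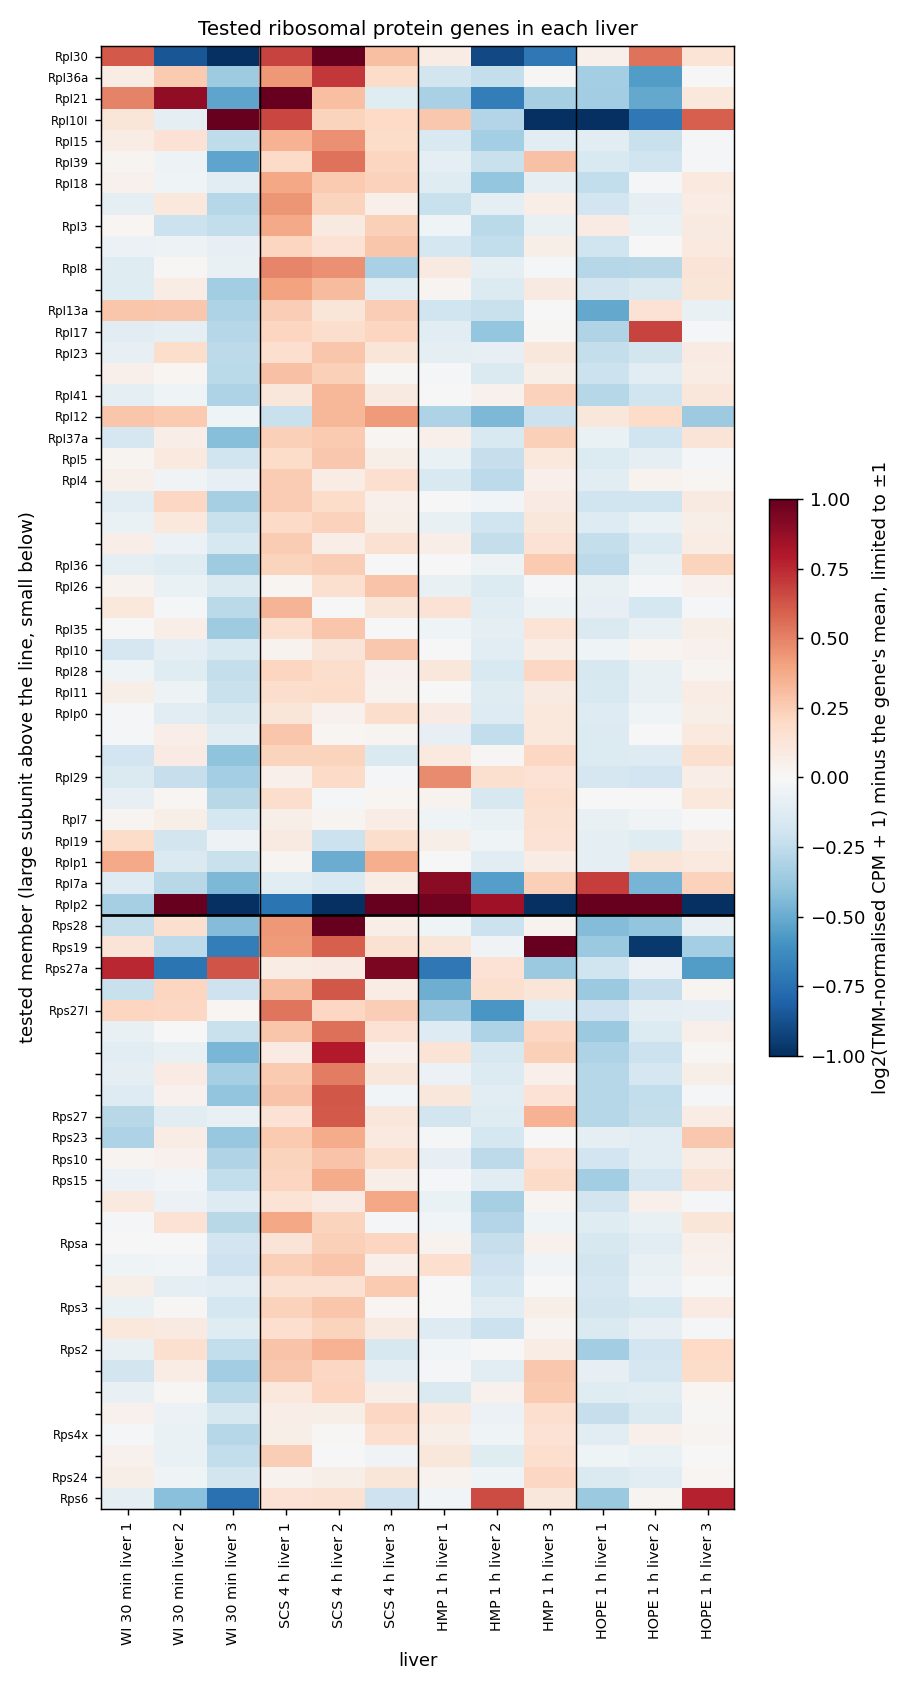
Log2(TMM-normalised CPM + 1) of the 69 tested members in each liver, minus the mean of the gene over 12 livers (red above, blue below, limited to ±1), with large subunit genes above the horizontal line, groups between vertical lines and names for members described in the text. The SCS columns are red for most members, WI liver 3 and HMP liver 2 are blue for most, and Rplp2, Rpl30, Rps27a and Rps19 break the pattern.

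The first comparison asks what cold storage adds to warm ischemia. Of the 69 tested members, 66 were higher on average in SCS than in WI, with a median log2 fold change of 0.25, against a median of 0.01 over all genes. All 28 small subunit members were on this side, and the 3 members on the other side were Rplp2, Rpl10l and Rplp1. None had an edgeR adjusted p under 0.05. At an unadjusted p under 0.05, 23 members (33.3%) were higher against 2.77% of all genes, and 0 were lower against 2%. DESeq2 called 0 members and 0.110% of all genes. The count of 23 rested on single livers, since it was 3 without WI liver 3, 3 without SCS liver 2, 10 without SCS liver 1 and 15 without WI liver 1, while 64 to 67 members had a positive fold change in these fits. The erythroid markers given above were higher in every WI liver than in every SCS liver, and their part in this difference was not tested. In bulk tissue, fewer cells of a type and less RNA per cell cannot be told apart.

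Rpl30, a member with copies, had the largest log2 fold change in this comparison at 0.95 (SE 0.408), and 0.31 with copy rows added. Rps28, a small protein near the mRNA exit of the small subunit (Rnor_6.0, chr7:18682071-18683440, minus strand), was at 34.1, 45.9 and 29.5 CPM in WI and at 55.0, 92.9 and 37.9 in SCS. Only SCS livers 1 and 2 were above all WI livers, and SCS liver 2 stood far above the rest. The log2 fold change was 0.79 (SE 0.248, edgeR adjusted p = 0.962), and 0.42 without SCS liver 2. Rps19, mutated in Diamond-Blackfan anaemia, had a log2 fold change of 0.67, and of -0.10 with its copy rows added.

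Rpl3 and Rpl10 lie near the catalytic centre of the large subunit. Rpl3 was at 299, 257 and 248 CPM in WI and at 385, 323 and 310 CPM in SCS, so that the groups did not overlap. Its log2 fold change was 0.38 (SE 0.129, edgeR adjusted p = 0.962). Rpl10 was at 429, 455 and 433 CPM in WI and at 494, 541 and 517 in SCS, again without overlap, with a log2 fold change of 0.29 (SE 0.115). The log2 fold changes of Rpl4, Rpl5, Rpl11, Rpl23 and Rpl26, also of the large subunit, were 0.19 to 0.24 with SEs of 0.111 to 0.139. Rpl35, at the tunnel exit, had 0.24 (SE 0.138) and its neighbour Rpl19 had 0.04 (SE 0.140), among the smallest of all members. Rpl13a, known for silencing inflammatory mRNAs when released from the ribosome, had 0.11 (SE 0.201). In the stalk, which recruits the elongation factors, Rplp0 was at 553, 527 and 500 CPM in WI and at 610, 593 and 565 CPM in SCS. The groups did not overlap, and the log2 fold change was 0.21 (SE 0.120), while Rplp1 had -0.02 (SE 0.211) and Rplp2 -0.40 (SE 1.20).

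Among small subunit members that hold the mRNA or its decoding site, Rps23 had a log2 fold change of 0.44 (SE 0.155). Rps15 had 0.33 (SE 0.149), Rps3 0.26 (SE 0.123) and Rps2 0.22 (SE 0.178). Rpsa, which also occurs as a laminin receptor, had 0.26 (SE 0.124). Rps4x, the X-linked form of Rps4, had 0.20 (SE 0.117). Of the genes mutated in Diamond-Blackfan anaemia, Rps10 had 0.30 (SE 0.139) and Rps24 0.12 (SE 0.111).

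**Figure D5:**
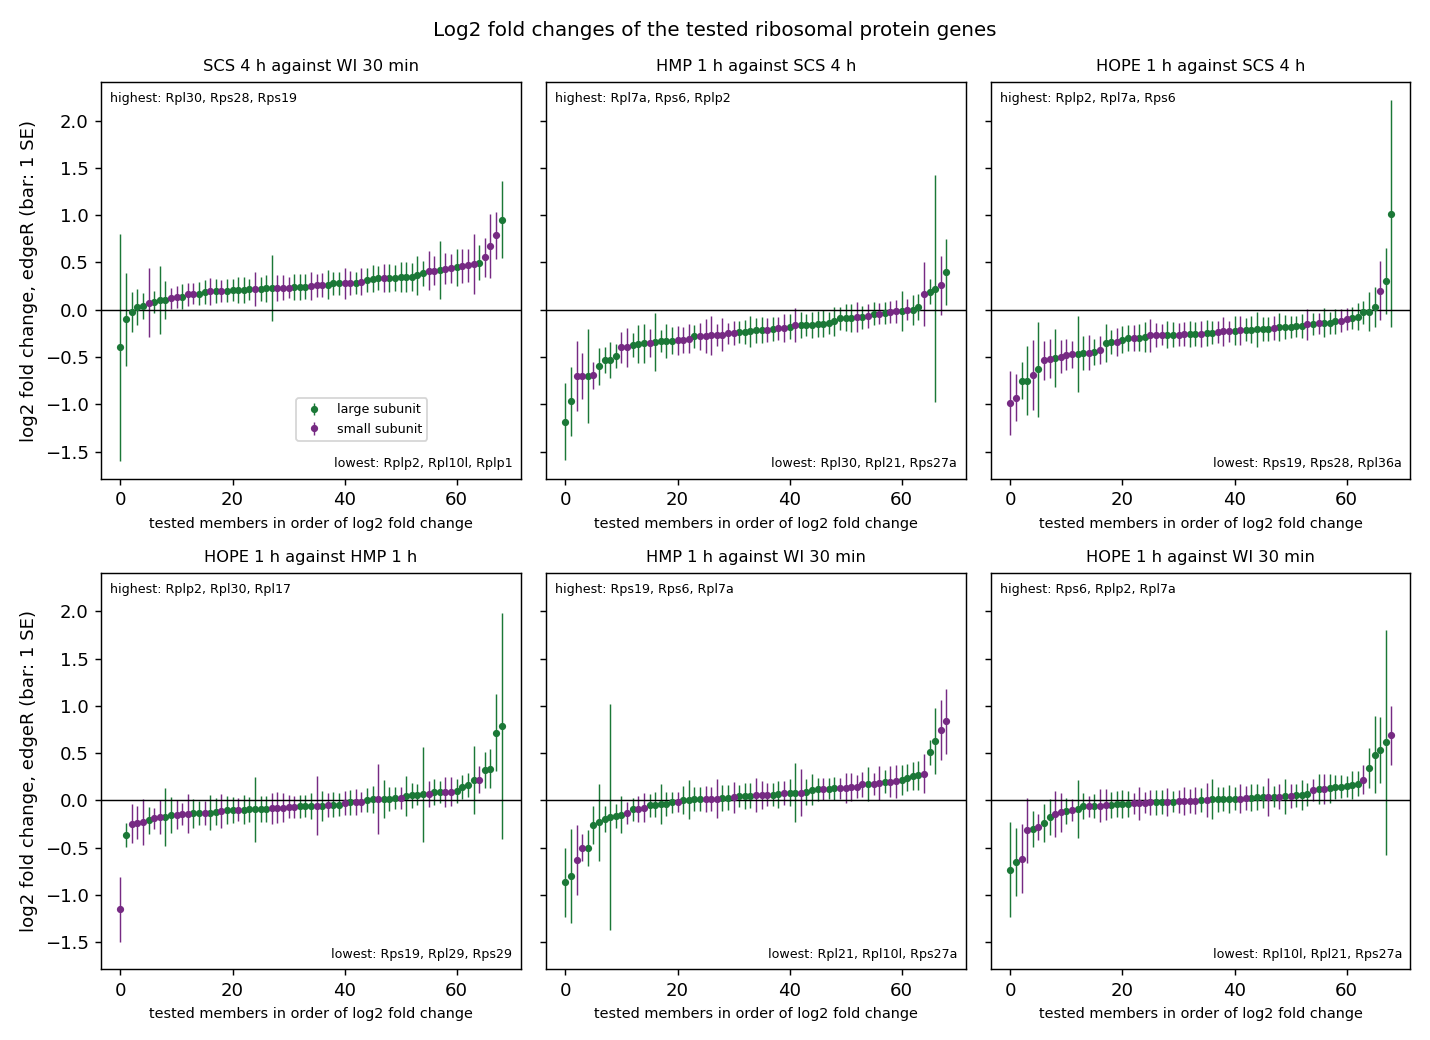
Log2 fold change with 1 SE (edgeR) of the 69 tested members in each of the 6 pairs of groups, in order of size, large subunit in green and small subunit in purple, with the 3 highest and 3 lowest members named. Values against SCS lie mostly below 0 (63 members for HMP, 65 for HOPE), those of SCS over WI mostly above 0 (66 members), and the other 3 panels straddle 0.

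The next comparisons ask how perfusion differed from storage for the same total time. They use the same SCS livers as the comparison above, so the values are given side by side and the opposite signs are not separate evidence. In HOPE, 65 of 69 members were lower than in SCS, with a median log2 fold change of -0.25 against 0.04 over all genes. The median was -0.21 in the large and -0.27 in the small subunit. None passed an edgeR adjusted p of 0.05. At an unadjusted p under 0.05, 15 members (21.7%), 11 of them small subunit genes, were lower against 6.84% of all genes, and 0 were higher against 4.04%. DESeq2 called 2 members, Rps28 and Rpl36a, and 1.49% of all genes. The 15 became 6 without HOPE liver 1, 7 without SCS liver 2, 10 without HOPE liver 2 and 31 without HOPE liver 3.

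Rps28 was at 28.0, 28.2 and 38.6 CPM in HOPE, below SCS livers 1 and 2, with HOPE liver 3 just above SCS liver 3. With TMM scaling, HOPE liver 3 was below SCS liver 3. The log2 fold change of Rps28 in HOPE over SCS was -0.93 (SE 0.249, edgeR adjusted p = 0.287, DESeq2 adjusted p = 0.0318), and -0.57 without SCS liver 2. Rpl36a, a large subunit protein near the exit site of the tRNA (Rnor_6.0, chrX:105402867-105405580, plus strand), was at 79.5, 98.5 and 59.4 CPM in SCS and 43.5, 36.4 and 58.4 CPM in HOPE. The groups did not overlap, although SCS liver 3 and HOPE liver 3 differed by little. Its log2 fold change was -0.75 (SE 0.194, edgeR adjusted p = 0.287, DESeq2 adjusted p = 0.0304). With its 5 copy rows, which held 59.5% of the reads of member and copies, most of them on the expressed paralog Rpl36al, it was -0.47.

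The lowest member in HOPE over SCS was Rps19 at -0.99 (SE 0.343), and -0.43 with copies. Its row held 27.9, 32.4 and 20.3 CPM in SCS and 14.7, 9.21 and 16.0 CPM in HOPE, without overlap. The 4 members on the other side were led by Rplp2 (1.01, SE 1.20), Rpl7a (0.31, SE 0.347) and Rps6 (0.20, SE 0.313), which with copies added were at 0.03, 0.13 and 0.12. Without HOPE liver 3, which had 17.8 CPM of Rps6 against 7.08 and 9.44 in the other HOPE livers, Rps6 was at -0.22.

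In HMP, 63 of 69 members were lower than in SCS, with a median log2 fold change of -0.22 against 0.04 over all genes. None passed an edgeR adjusted p of 0.05. At an unadjusted p under 0.05, 17 members (24.6%) were lower against 8.56% of all genes and 0 were higher against 5.93%. DESeq2 called 3 members, Rpl15, Rpl18 and Rps27l, and 3.20% of all genes. The 17 became 7 without HMP liver 2, 9 without SCS liver 2, and 11 without SCS liver 1 or without HMP liver 1, the library rich in mitochondrial counts.

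Rps27l, a paralog of Rps27 (Rnor_6.0, chr8:72741155-72746090, plus strand), had no copy row and the smallest edgeR adjusted p of any member. It was at 53.7, 54.0 and 46.5 CPM in WI, 67.5, 55.0 and 48.8 in SCS, 34.9, 27.9 and 37.8 in HMP and 37.5, 40.1 and 43.7 in HOPE. All 6 perfused livers were below all 6 others. The log2 fold change of HMP over SCS was -0.69 (SE 0.141, edgeR adjusted p = 0.0880, DESeq2 adjusted p = 0.00221). It ranged from -0.80 to -0.58 when each library was left out. Over WI it was -0.50 in HMP (SE 0.141, edgeR adjusted p = 0.172) and -0.28 in HOPE (SE 0.141, edgeR adjusted p = 0.601). Its paralog Rps27 had log2 fold changes over WI of 0.19 (SE 0.182) in HMP and 0.01 (SE 0.181) in HOPE, and the difference between the paralogs was not tested.

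Rpl15, a protein of the large subunit core, was at 293, 323 and 232 CPM in SCS and 201, 166 and 187 in HMP, without overlap. Its log2 fold change was -0.54 (SE 0.137, edgeR adjusted p = 0.120, DESeq2 adjusted p = 0.0152). Rpl18 was at 239, 225 and 190 CPM in SCS and 164, 127 and 151 in HMP, also without overlap, with a log2 fold change of -0.49 (SE 0.127, edgeR adjusted p = 0.124, DESeq2 adjusted p = 0.0111). The extremes were members with copies. Rpl30 had -1.18 (SE 0.410) alone and -0.17 with copies. Rpl21 had -0.97 alone and -0.39 with copies, and Rps27a had -0.70 alone and -0.11 with copies.

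The perfused livers differed from the WI livers by cold storage as well as perfusion, and these cannot be told apart in this comparison. In HMP over WI, 48 members were higher and 21 lower, with a median log2 fold change of 0.06. Without WI liver 3 the median was -0.04, with 29 higher and 40 lower. No member had an edgeR adjusted p under 0.05. At an unadjusted p under 0.05, 3 members (Rpl29, Rps19 and Rps6) were higher against 7.24% of all genes, and 3 (Rpl12, Rps27l and Rpl21) were lower against 6.60%. DESeq2 called 1 member, Rpl29, and 2.83% of all genes. In HOPE over WI, 35 members were higher and 34 lower, with a median of 0.00. The split was 26 and 43 when counts were scaled by the median of ratios, and it ranged from 19 and 50 without WI liver 3 to 51 and 18 without HOPE liver 1, so no direction was read. No member passed in HOPE over WI at an edgeR adjusted or unadjusted p under 0.05 (4.41% of all genes higher and 4.16% lower, unadjusted) or in DESeq2 (0.709% of all genes).

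Rpl29, a heparin-binding protein of the large subunit surface (Rnor_6.0, chr8:115131367-115133401, plus strand), was at 125, 119 and 108 CPM in WI, 143, 162 and 121 in SCS, 188, 142 and 135 in HMP and 116, 112 and 145 in HOPE. All HMP livers were above all WI livers, and HMP liver 1 was the highest. The log2 fold change of HMP over WI was 0.51 (SE 0.129, edgeR adjusted p = 0.139, DESeq2 adjusted p = 0.0124), and 0.40 without HMP liver 1. Rps19 had 0.84 (SE 0.341) alone, with HMP liver 3 at 44.2 CPM against 21.8 and 18.2 in the other HMP livers. It was 0.30 without HMP liver 3 and -0.03 with copies.

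The HOPE and HMP livers differed by the oxygenation of the perfusate. Members were lower in 44 and higher in 25 cases, with a median log2 fold change of -0.06, and scaling by the median of ratios gave 50 lower and 19 higher. Without HOPE liver 1 the median was 0.00. No member had an edgeR adjusted p under 0.05. At an unadjusted p under 0.05, 2 members (Rpl29 and Rps19) were lower against 3.52% of all genes, and 0 were higher against 3.96%. DESeq2 called 0 members and 0.110% of all genes. Rps19 was lowest at -1.15 (SE 0.343, edgeR adjusted p = 0.558), which became -0.62 without HMP liver 3 and -0.50 with copies. Rpl29 was at -0.36 (SE 0.129). At the other end were Rplp2 (0.79, SE 1.19, and 0.10 with copies), Rpl30 (0.72, and -0.10 with copies) and Rpl17 (0.33, SE 0.208), where HOPE liver 2 had 130 CPM and the other 11 livers 61.3 to 102 CPM.

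Ordered by group means, SCS was highest for 60 of the 69 members (53 to 63 when each library was left out), HMP for 6, HOPE for 2 and WI for 1. The lowest group was WI for 29 members, HOPE for 25 and HMP for 14. This order turned with single livers. Leaving out each library, WI was lowest for 14 to 42 members, HOPE for 8 to 36 and HMP for 8 to 26, and WI had the fewest without WI liver 3 and the most without WI liver 2 or HOPE liver 1. The median over members of the log2 deviation from each gene's mean was 0.18 ± 0.0711 in SCS, -0.02 ± 0.114 in HMP, -0.07 ± 0.119 in HOPE and -0.09 ± 0.136 in WI (SD, n = 3). HMP, HOPE and WI did not differ beyond their spread. By liver, this TMM-scaled score was 0.22, 0.22 and 0.099 in SCS. The highest livers of the other groups were HMP liver 3 at 0.087 and HOPE liver 3 at 0.059, and HMP liver 1 was at -0.018. On this scale all SCS livers were above all others, SCS liver 3 by little, unlike in the share of counts.

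Other genes of the translation machinery were followed as lists, in which no gene passed an edgeR adjusted p of 0.05. Of 13 genes of translation elongation or with known TOP mRNAs, 12 were higher in SCS than in WI (median log2 fold change 0.17), 11 were lower in HOPE than in SCS (median -0.14) and 12 were lower in HMP than in SCS (median -0.21). Among them Eef2, the elongation factor that moves the ribosome along the mRNA, had 0.20 (SE 0.138) in SCS over WI and -0.37 (SE 0.138) in HOPE over SCS. Tpt1, whose abundant mRNA has a TOP start, had 0.27 (SE 0.126) and -0.35 (SE 0.126). DESeq2 called 2 of the 13 genes in HOPE over SCS (1.49% of all genes) and 1 in HMP over SCS (3.20% of all genes). It called 0 of them in SCS over WI (0.110% of all genes).

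Of 7 tested ribosomal protein genes outside the rule, 6 were higher in SCS than in WI and 7 lower in HOPE than in SCS. Rpl10l, which the rule also takes, is counted among these 7. Of 26 translation initiation factors, 18 were higher in SCS than in WI, 23 were lower in HMP than in SCS (median -0.22, 9 at an unadjusted p under 0.05 against 8.56% of all genes) and 22 were higher in HOPE than in HMP (median 0.16). Of 70 ribosome biogenesis factors, which build the subunits in the nucleolus, 31 were higher in SCS than in WI (median -0.02), 46 were lower in HMP than in SCS (median -0.10) and 51 were higher in HOPE than in SCS (median 0.11). In HOPE over HMP 54 of 70 were higher, with a median of 0.19 and 15 at an edgeR unadjusted p under 0.05, against 3.96% of all genes, where the median of the ribosomal proteins was -0.06. DESeq2 called 0 of the initiation and biogenesis factors in every pair, where it called 0.110% to 3.20% of all genes. Of 18 regulators of TOP mRNAs and ribosome supply, 6 were higher in SCS than in WI (median -0.06). Of all tested genes, 52.3% were higher in SCS than in WI and 45.8% lower in HMP than in SCS. In HOPE, 55.1% were higher than in SCS and 49.0% higher than in HMP. The lists were not refitted without single libraries.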

How the data were processed

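Liver RNA was made into libraries with the SMARTER mRNA-Seq kit per the labels. The authors aligned paired-end reads with Hisat2 and assembled them with StringTie, on build Rnor_6.0 by the submitters' processing notes. How reads were counted, and whether by strand, is not given in these sources. The authors deposited raw counts per gene and FPKM (counts per gene length and library total) for each of the 12 livers in 1 table, whose columns were matched to livers by name (0 of 24 unmatched). Its columns of the authors' own comparisons (means, log2 fold changes and p-values) were not used.

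Counts were tested with edgeR 4.0.16 in R 4.3.3 (TMM, filterByExpr, a mean per group, quasi-likelihood F test, Benjamini-Hochberg over 13687 genes). Residual and prior degrees of freedom were 8 and 3.86. Group scores are medians over members of log2 CPM (prior count 2) minus each gene's mean. FPKM entered 1 alternative ratio. The scripts were tested on simulated data.

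The members and lists were chosen with earlier results of these data known. Members named are those with fixed roles in the ribosome, the 5 highest and 5 lowest levels per length, called members and, per pair, the 3 highest and 3 lowest log2 fold changes with at least 5 CPM in a group. Rps14, Rps26, Rpl35a and Rps4y2 are not analysed here, and some members that the rule names are not reported here. Members called by DESeq2 only, and Rpl36, Rps27, Rpl7, Eef2 and Tpt1, were named after their values were seen. Copy rows are other rows whose symbol or description names the protein of a member or one like it. Alternatives were DESeq2 1.42.0, median of ratios scaling, no filter on low counts, fits of 2 groups alone, a block for the replicate number, mitochondrial genes left out, counts per kilobase, members without copy rows, and leaving out each library. Added after seeing the data were HMP liver 1 and HOPE liver 3 left out together, and copy rows added to members. For genes that were not called, a change of sign was counted if it exceeded 1 SE. Differences between libraries of a group exceeded sampling noise, so each library was counted as its own sample. Intervals for counts of 0 use 3 counts and cover counting error only.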

Additional observations from a re-analysis of the deposited data

How the results depend on the processing

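Of 296 alternatives for the group results, 275 stayed near the main value. This meant the same count of called members, a median log2 fold change within 0.113, or a share or ratio within the SD of its group. Direction was not part of this rule. Leaving out each library, the median ran from -0.07 to 0.05 in HOPE over WI and from -0.04 to 0.11 in HMP over WI. In HOPE over HMP it ran from -0.11 to 0.002, so these 3 medians changed sign. The edgeR count of 0 called members held in all pairs and for any difference without any single library (0 to 0). In these fits at most 36 of all tested genes were called, in HMP over SCS without HMP liver 1. With so few calls, 0 is not read as a result about the members. DESeq2 called 2 members in HOPE over SCS, 3 in HMP over SCS, 1 in HMP over WI and 5 for any difference. The cause was not tested. Limited to members without copy rows, the share of counts was 0.488%, 0.566%, 0.467% and 0.474% in WI, SCS, HMP and HOPE, which follows from the 29 genes left, and the ratio of large to small was 2.17, 2.05, 2.16 and 2.24. Per kilobase, and alike in the authors' FPKM, that ratio was 1.45, 1.4, 1.45 and 1.53. The share in HMP among nuclear genes was 1.19%.

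Of 7866 alternatives for single genes, 6 passed the threshold in DESeq2 and 23 changed sign by more than 1 SE. The others did neither, and smaller changes of sign are among them. With copy rows added, the log2 fold change was -0.10 for Rpl30 in HOPE over HMP, 0.0047 for Rps27a and -0.034 for Rps19 in HMP over WI, and -0.10 for Rps19 in SCS over WI. Without HMP liver 1 and HOPE liver 3 together it was -0.22 for Rps6 in HOPE over SCS, -0.15 for Rpl27 and 0.34 for Rpl7a in HOPE over HMP, and -0.026 for Rpl7a in HMP over SCS. Leaving out single libraries gave ranges of -0.22 to 0.44 for Rps6 in HOPE over SCS, -0.16 to 0.12 for Rpl31 in HOPE over WI, and -0.41 to 0.33 for Rpl7a and -0.70 to 0.46 for Rpl10l in HOPE over HMP. In HMP over SCS they were -0.22 to 0.20 for Rplp1, -0.41 to 0.016 for Rps29, -0.35 to 0.39 for Rps19 and -0.026 to 0.70 for Rpl7a. In HMP over WI they were -0.0025 to 0.29 for Rps27, -0.58 to 0.49 for Rpl30 and -0.73 to 1.65 for Rplp2, and in SCS over WI -0.30 to 0.44 for Rpl21, -1.88 to 1.43 for Rplp2 and -0.33 to 0.40 for Rpl10l.

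The labels number the livers 1 to 3 in each group. Deviations of livers with the same number correlated at -0.189 to 0.143 (median 0.0334), 1 of 18 pairs was over 0.1, and 5 of 12 livers correlated best with their own number, so the numbers were not taken as pairs. With the replicate number as a block, 0 members were called, the median log2 fold change was -0.25 in HOPE over SCS, and Rplp2 was at 0.96 in SCS over WI. Members at an unadjusted p under 0.05 went from 23 to 16 in SCS over WI with this block, and to 14 there and from 17 to 11 in HMP over SCS when mitochondrial genes were left out. Differences under about 0.2 on the log2 scale lay within 1 to 2 SE for most members. Larger ones were not called either with 3 livers per group. No member had an edgeR adjusted p under 0.05, including Rps27l at -0.69 in HMP over SCS.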
